A study of Mus musculus with 42 samples.

Results

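The mRNA of mouse embryonic stem cells (ESCs) kept in 2i/LIF was compared with that of the same line kept in serum/LIF. The members of the comparison are the gene names that stand once in each of the 2 deposited tables that hold these libraries: 15543 names, against 16346 lines in the table that starts from 2i/LIF cells and 16753 in the table that starts from serum/LIF cells. Of the 15543 names, 14085 had a mean of at least 10 units over the 2 libraries and were compared; all gene counts below refer to those. The series holds 42 libraries, 32 of them of polyA-selected RNA, and the comparison rests on 2 of these, 1 per medium. Both come from KH2-ISY1, an ESC line that carries a doxycycline (Dox) inducible copy of Flag-tagged ISY1, a splicing factor, and both were grown without Dox. The 2i/LIF library was taken at 0 h, before cells were moved to a medium that makes epiblast-like cells (EpiLCs), and the serum/LIF library on day 0, before embryoid bodies (EBs) were made. KH2-ISY1 is 1 engineered line, so nothing here speaks for other ESC lines. For context, values are also given for 4 KH2-ISY1 libraries of cells returned from EpiLC medium to 2i/LIF (cESCs, from 24 h and 48 h EpiLCs, without and with Dox), for 1 serum/LIF library with Dox, and for 1 library of a DGCR8 knockout line in 2i/LIF.

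LIF is a cytokine that sustains ESC self-renewal through STAT3. In 2i medium it is joined by a pair of kinase inhibitors: 1 of MEK, which silences the ERK pathway and its feedback genes, and 1 of GSK3, which stabilises beta-catenin and relieves repression by TCF factors. Serum brings growth factors, among them BMP activity that induces the Id genes, and it also carries lipids and other nutrients, while ERK remains active. ESCs in 2i/LIF are described as uniform and close to the naive epiblast, and those in serum/LIF as a mixture of naive and primed-like states with more DNA methylation.

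Values are normalised units of the deposited tables: gene reads divided by 1 size factor per library, after which the 2 columns were put on a common scale by the median ratio over all shared genes. The 2i/LIF library held 6.35 M gene reads, so that 1 read was worth 0.885 units, and the serum/LIF library 23.84 M, with 1 read worth 0.223 units. A gene with no read could still have had up to 3, which corresponds to 2.65 units in 2i/LIF and 0.670 units in serum/LIF. With 1 library per medium there is no replicate spread and no test: intervals printed with a fold are 95% Clopper-Pearson intervals of the read counts and cover counting error only. The 2 tables were also normalised apart, and the medium, the table, the sequencing depth and any library batch cannot be told apart, so large differences are reported. A gene is counted as higher in a medium where log2(value + 1) differed by at least 2, termed 4-fold below, and the median log2 difference over all genes was 0.02. Isy1 itself stood at 272 units in 2i/LIF and 322 in serum/LIF, against 5007 in serum/LIF with Dox, which matches the labels on Dox. The general ESC genes Pou5f1 (9861 and 8391 units in 2i/LIF and serum/LIF) and Sox2 (1992 and 2799) were high in both libraries.

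In all, 305 genes (2.17%) were at least 4-fold higher in 2i/LIF and 548 (3.89%) at least 4-fold higher in serum/LIF. Together these are 6.06% of the genes, so few or no calls in a short list below are near the share over all genes. At 2-fold, 1249 genes (8.87%) were higher in 2i/LIF and 1543 (11.0%) in serum/LIF. When the serum/LIF library with Dox took the place of the one without, 406 genes (2.94%) were 4-fold higher in 2i/LIF and 336 (2.44%) in serum/LIF. For the 0 h library the direction that holds more genes thus depended on which serum/LIF library was used. Each of the 4 cESC libraries had more genes 4-fold higher in serum/LIF, against either serum/LIF library. Each of the 5 KH2-ISY1 libraries in 2i/LIF can be set against each of the 2 in serum/LIF, which gives 10 pairs that share libraries. Across all 10, with the divisors of the main pair, 47 genes (0.334%) were 4-fold higher in 2i/LIF and 139 (0.987%) in serum/LIF. With each pair scaled anew by its own median ratio, the counts were 53 (0.376%) and 130 (0.923%). The calls depended on the 2i/LIF library: with the cESC library from 24 h EpiLCs without Dox in its place, 94 of the 305 genes and 309 of the 548 passed again, and 60 and 27 took the opposite sign.

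**Figure D1:**
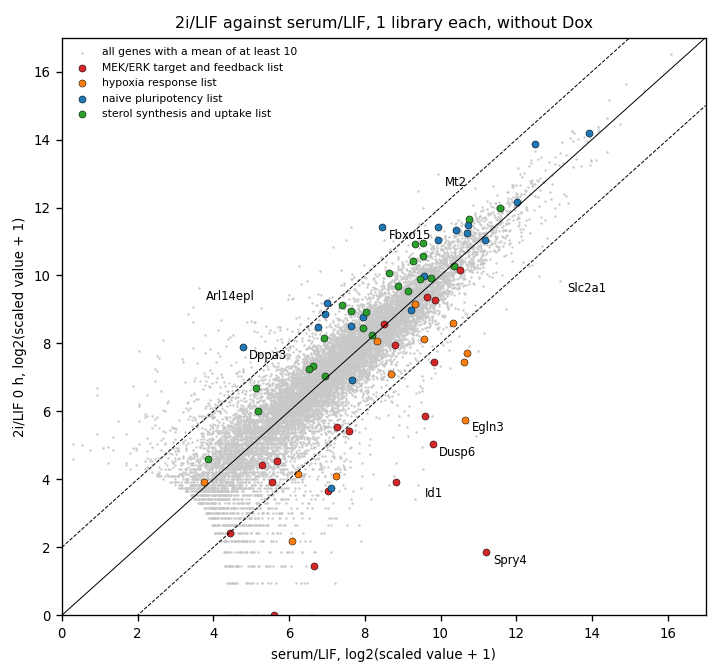
Each grey point is 1 of the 14085 compared genes, at log2(scaled value + 1) in serum/LIF (horizontal) and in 2i/LIF at 0 h (vertical), with 1 library each and 4 gene lists in colour; the solid line marks equal levels and the dashed lines a log2 difference of 2. Most genes lie near the line, the MEK/ERK list (red) lies below it except for Ccnd1, and Spry4, at 2.65 and 2359.96 units, is farthest from it.

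Targets and feedback inhibitors of the ERK pathway were higher in serum/LIF. Of 19 measured members, 10 were at least 4-fold higher in serum/LIF and none in 2i/LIF, with a median log2 difference of -2.003, and 18 of the 19 stood on the serum/LIF side. Spry4, a Sprouty protein that restrains receptor tyrosine kinase signalling, had 2.65 units in 2i/LIF and 2359.96 in serum/LIF, which is 3 reads against 10567. The 4 cESC libraries had 0, 5.597, 5.39 and 0 units and the serum/LIF library with Dox had 1889. The 2i/LIF and serum/LIF libraries of KH2-ISY1 therefore lay far apart for this gene, with a ratio of 892 (interval 304 to 4311) in the main pair, while the DGCR8 knockout library in 2i/LIF stood between them at 116 units. In these bulk libraries fewer cells expressing a gene and less RNA per cell cannot be told apart.

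Dusp6, the cytoplasmic ERK phosphatase, had 31.9 units in 2i/LIF, 3.66 to 55.5 in the cESC libraries, and 883 and 1189 in serum/LIF without and with Dox, a 27.7-fold difference in the main pair (interval 19.99 to 39.6). Etv4, an ETS factor of the PEA3 group, had 14.1 units in 2i/LIF, 0 to 23.2 in the cESC libraries, and 452 and 641 in serum/LIF. Egr1, an immediate early factor, had 1.73 units in 2i/LIF and 99.2 and 40.0 in serum/LIF. All 3 genes were lower in every KH2-ISY1 2i/LIF library than in either serum/LIF library. Myc, the growth regulator, had no read in 2i/LIF and 47.6 units in serum/LIF, at least 17.9-fold higher, and 52.2 units with Dox. Phlda1, an early growth factor response gene, stood at 11.5 and 130.2 units in 2i/LIF and serum/LIF, and Spred1, an inhibitor of Ras to Raf signalling, at 174 and 905. The nuclear phosphatase gene Dusp4 differed 4.62-fold, and the AP-1 gene Fosl1 4.70-fold on only 5 reads in 2i/LIF (interval 1.92 to 14.6).

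The pathway was not uniform. Spry2, a further Sprouty gene, differed by -0.26 on the log2 scale, Etv5 by -0.37, and Ccnd1, which encodes cyclin D1, by 0.07. Ier3, an immediate early gene, had 57.5 units in 2i/LIF and 776 in serum/LIF without Dox, but 69.7 in serum/LIF with Dox, so its difference rested on 1 serum/LIF library. Against serum/LIF with Dox 8 of the 19 genes were 4-fold higher in serum/LIF, and 7 were so in all 10 pairs (6 with each pair scaled anew, without Spred1).

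**Figure D2:**
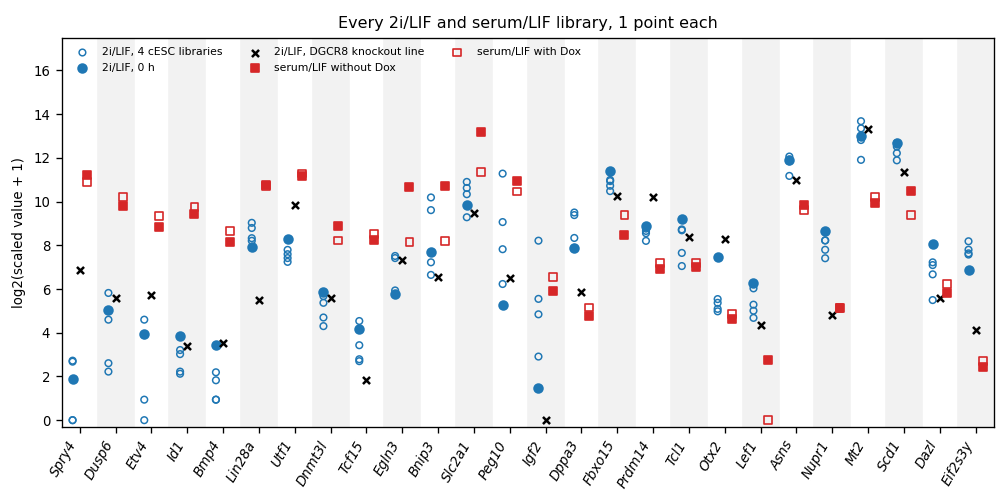
Each column is 1 gene and each point 1 library, at log2(scaled value + 1): the 0 h 2i/LIF library (filled blue), the 4 cESC libraries (open blue), the DGCR8 knockout line in 2i/LIF (cross), and serum/LIF without (filled red) and with Dox (open red). Spry4, Dusp6, Etv4, Id1 and Bmp4 are lower in all 5 blue libraries than in both red ones, whereas for Bnip3, Peg10 and Igf2 the blue and red points overlap.

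BMP ligand and target genes were split in direction. Of 11 measured members, 4 were at least 4-fold higher in serum/LIF and 1 in 2i/LIF (median log2 difference -0.62). Id1, an inhibitor of basic helix-loop-helix factors and a direct BMP target, had 13.2 units in 2i/LIF, 3.36, 3.66, 7.12 and 8.24 in the cESC libraries, and 681 and 865 in serum/LIF without and with Dox. The ligand gene Bmp4 had 9.77 units in 2i/LIF, 0.916 to 3.56 in the cESC libraries, and 286 and 398 in serum/LIF. Both genes kept a wide gap: the ratio in the main pair was 51.5 (interval 31.1 to 91.8) for Id1 and 29.2 (interval 16.3 to 58.9) for Bmp4. Id3, a paralogue of Id1, stood at 10.6 and 81.7 units in 2i/LIF and serum/LIF, and at 209 in the DGCR8 knockout library in 2i/LIF, above both serum/LIF values. The homeobox gene Msx2 had 1.73 and 19.9 units, but 33.9 in the cESC library from 48 h EpiLCs with Dox, above the serum/LIF level. The inhibitory Smad7 was 2.41-fold higher in serum/LIF (interval 2.14 to 2.74). In the other direction, Smad9, which encodes a BMP receptor-regulated Smad, had 26.6 units in 2i/LIF and 5.58 in serum/LIF, while the cESC libraries had 1.83 to 7.12, and Id4 had 35.4 and 14.3 units.

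Naive pluripotency genes were mostly near or above their serum/LIF level in the 0 h 2i/LIF library, by less than 4-fold. Among 20 members, 3 were at least 4-fold higher in 2i/LIF and 1 in serum/LIF, 16 stood on the 2i/LIF side, and the median log2 difference was 0.85, or 0.43 against serum/LIF with Dox. The median log2 level of the list was 10.51 in the 0 h library, 9.15, 9.68, 10.05 and 9.44 in the cESC libraries (24 h and 48 h without Dox, then with Dox), and 9.39 and 9.77 in serum/LIF without and with Dox. As a list, the cESC libraries thus overlapped serum/LIF, and only the 0 h library and the cESC library from 24 h EpiLCs with Dox were above both serum/LIF libraries. Dppa3, a maternal factor that shapes DNA methylation in the early embryo, had 236 units in 2i/LIF, 666, 322, 235 and 722 in the cESC libraries, and 26.4 and 34.6 in serum/LIF. All 5 KH2-ISY1 libraries in 2i/LIF were thus above both serum/LIF libraries, by 8.97-fold in the main pair (interval 7.19 to 11.2), while the DGCR8 knockout library stood at 56.9. Fbxo15, an F-box gene and classical ESC marker, had 2728 units in 2i/LIF, 1426 to 2031 in the cESC libraries, and 349 and 660.3 in serum/LIF. Tcl1, a coactivator of AKT, had 585 units against 127 and 146, with 131 in the cESC library from 24 h EpiLCs without Dox, which overlaps serum/LIF.

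Prdm14, a repressor of the de novo methyltransferase genes, was 3.85-fold higher in 2i/LIF (467 and 121 units, interval 3.41 to 4.34). The homeobox factor gene Nanog was 2.85-fold higher (2772 and 974), and Tfcp2l1, which lies downstream of LIF and 2i, 2.62-fold (14998 and 5729.8). These genes stayed under the 4-fold threshold, as did Klf4 at 2564 and 1347 units. For Klf4 the cESC libraries ran from 277 to 1408 and serum/LIF with Dox stood at 1830.3, so the media overlapped. Esrrb, Zfp42 and Klf5 differed by 0.55, 0.16 and -0.15 on the log2 scale. The exception was Gbx2, a homeobox gene, with 12.4 units in 2i/LIF, 0.814 to 26.8 in the cESC libraries, and 137 and 281 in serum/LIF, 11.05-fold higher in serum/LIF (interval 6.55 to 20.4).

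Among 10 genes of the core pluripotency list, 3 were at least 4-fold higher in serum/LIF and none in 2i/LIF, with a median log2 difference of -0.98. Lin28a, an RNA-binding protein that blocks let-7 maturation, had 242 units in 2i/LIF, 521, 294, 319.5 and 442 in the cESC libraries, and 1722 and 1662 in serum/LIF. Its paralogue Lin28b, which stands in the microRNA list, had 86.7 units and 389 and 423. Utf1, a chromatin-associated ESC factor, had 316 units in 2i/LIF, 150.3 to 220.2 in the cESC libraries, and 2270.4 and 2496 in serum/LIF. For these 3 genes both serum/LIF libraries were above all 5 KH2-ISY1 libraries in 2i/LIF. Dppa2 had 99.1 and 401 units, and its partner gene Dppa4 255 and 502. Pou5f1, Sox2 and Sall4 differed by 0.23, -0.49 and -0.24 on the log2 scale. The other members of the microRNA list, which holds the processing machinery and Isy1, were all within 4-fold.

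Formative genes, which the epiblast switches on when it leaves the naive state, were split in direction. Of 12 measured members, 2 were 4-fold higher in 2i/LIF and 4 in serum/LIF. Otx2, a homeobox factor of the early epiblast, had 174 units in 2i/LIF at 0 h, 33.1, 30.5, 45.5 and 40.3 in the cESC libraries, and 23.4 and 28.3 in serum/LIF. The 0 h library thus stood well above serum/LIF and the cESC libraries only slightly, down to a log2 difference of 0.11 in the closest pair. Zic2, a zinc finger factor, had 156 units in 2i/LIF, 127 to 243 in the cESC libraries, and 30.8 and 21.1 in serum/LIF, and was 4-fold higher in 2i/LIF in all 10 pairs. In the other direction, Tcf15, a basic helix-loop-helix factor of cells primed to differentiate, had 16.8 units in 2i/LIF, 5.50 to 22.2 in the cESC libraries, and 299 and 366 in serum/LIF, and Pou3f1 had 15.1, 3.66 to 6.41, and 106 and 80.7. Both were 4-fold higher in serum/LIF in all 10 pairs. Sfrp2, a secreted Wnt modulator, and Cdh2, which encodes N-cadherin, had 2 reads each in 2i/LIF and 54.9 and 32.4 units in serum/LIF, but 17.8 and 6.78 in serum/LIF with Dox.

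Targets of beta-catenin, whose degradation the GSK3 inhibitor of 2i prevents, had a median log2 difference of 0.66 over 9 measured members, with 1 at least 4-fold higher in each medium. The median log2 level of the list was 5.83 at 0 h, 4.68 to 6.03 in the cESC libraries, and 4.80 and 4.74 in serum/LIF, with overlap. Lef1, a DNA-binding partner of beta-catenin, had 75.2 units in 2i/LIF, 24.6 to 64.3 in the cESC libraries, 5.81 in serum/LIF and no read in serum/LIF with Dox. Notum, a secreted Wnt inhibitor, was 3.67-fold higher (54.9 and 14.97 units), the homeobox gene Cdx1 2.17-fold (179 and 82.4), and Axin2, a feedback scaffold of the pathway, 2.08-fold (55.8 and 26.8). In the cESC libraries Notum ran from 6.82 to 79.5 and Cdx1 from 9.36 to 37.4 units, so both overlapped serum/LIF. Nkd1, a feedback inhibitor, had 2 reads in 2i/LIF and 23.4 units in serum/LIF, with 7.96 with Dox. Of 12 LIF and STAT3 pathway genes only Junb, an AP-1 gene, passed 4-fold (132 units in 2i/LIF, 729 and 442 in serum/LIF). Socs3, the feedback inhibitor of STAT3, stood at 1669 and 2701 units and Stat3 at 407 and 291. None of 8 measured Nodal pathway genes passed 4-fold in either direction: Nodal differed by 0.12, Lefty1 by -0.40 and Lefty2 by 0.92 on the log2 scale.

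Among 11 measured genes of DNA methylation and its removal, 1 was 4-fold higher in serum/LIF and none in 2i/LIF, and the median log2 difference was -0.66. Dnmt3l, the gene that passed, encodes the catalytically inactive cofactor of the de novo methyltransferases and had 56.7 units in 2i/LIF, 50.1, 24.9, 18.7 and 40.3 in the cESC libraries, and 478 and 297 in serum/LIF. Dnmt3b had 75.2 units against 227 and 236, with 55.2 to 79.5 in the cESC libraries. Both genes were below serum/LIF in all 5 KH2-ISY1 libraries in 2i/LIF. Dnmt3a, with 30.9 and 86.4 units, was not, since the cESC library from 24 h EpiLCs without Dox had 121. Dnmt1, the maintenance enzyme, differed by 0.03 and its partner Uhrf1 by 0.85 on the log2 scale. The dioxygenase genes Tet1, Tet2 and Tet3 differed by -1.13, -0.66 and -1.69. Of 12 measured imprinted genes, 5 were 4-fold higher in serum/LIF and 1 in 2i/LIF, but none in all 10 pairs. Peg10, a retrotransposon-derived paternally expressed gene, had 38.1 units in 2i/LIF at 0 h and 1953 and 1405 in serum/LIF, a 51.3-fold difference (interval 38.1 to 71.0), yet 533, 74.0, 225 and 2484 in the cESC libraries without and then with Dox. Igf2, a growth factor gene, likewise had 1.73 units at 0 h, 6.51 to 295 in the cESC libraries, and 58.7 and 92.2 in serum/LIF. The range within 2i/LIF was therefore as wide as the gap between the media for both. Phlda2 (69.9 and 576 units), the cyclin-dependent kinase inhibitor gene Cdkn1c (16.8 and 137) and Zim1 (4.38 and 25.2) were the other genes higher in serum/LIF, and the zinc finger gene Plagl1 (665 and 139.8) was higher in 2i/LIF, with 93.3 to 721 in the cESC libraries.

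Germline genes were again split: of 18 measured members, 4 were 4-fold higher in 2i/LIF and 2 in serum/LIF. Tuba3a, a testis alpha-tubulin with near-identical copies, so that its counts are uncertain, had 855 units in 2i/LIF and 77.9 in serum/LIF, and Dpep3 had 63.7 and 5.58. Dazl, an RNA-binding protein of germ cells, had 264 units in 2i/LIF at 0 h, 44.1 to 148 in the cESC libraries, and 54.9 and 74.6 in serum/LIF, with overlap. Rpl10l, a testis-expressed retrocopy of a ribosomal protein gene, had 838 units in 2i/LIF at 0 h, 78.1 to 312 in the cESC libraries, and 165 and 191 in serum/LIF, again with overlap. Ddx4, the germ cell RNA helicase VASA, went the other way, with 19.4 units in 2i/LIF, 18.7 to 92.4 in the cESC libraries, and 196 and 171 in serum/LIF. Mael, a piRNA pathway gene, had 11.5, 1.83 to 8.45, and 69.7 and 53.8 in the same order, and was 4-fold higher in serum/LIF in all 10 pairs. Of the list of genes that mark a rare state resembling the embryo after its first cleavage, 8 were in both tables and none reached a mean of 10 units.

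**Figure D3:**
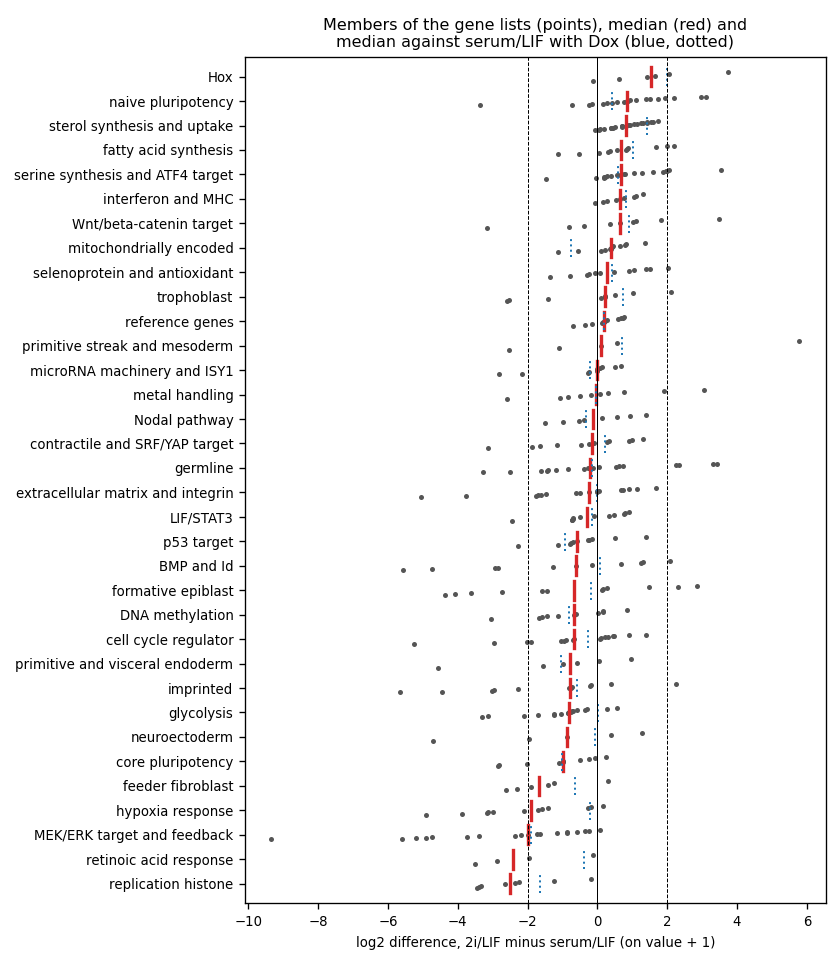
Each point is 1 measured member of a gene list (rows), at its log2 difference, 2i/LIF minus serum/LIF without Dox (on value + 1), with dashed lines at -2 and 2. Red bars give the list median and blue dotted bars the median against serum/LIF with Dox; the 2 medians lie close together for the MEK/ERK list (-2.003 and -1.91) and far apart for the hypoxia list (-1.90 and -0.22).

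Sterol synthesis genes were mostly higher in 2i/LIF, by small steps. Of 24 measured genes, 23 were higher in 2i/LIF (against 7236 of all 14085 genes), none reached 4-fold, 9 reached 2-fold, and the median log2 difference was 0.83. Against serum/LIF with Dox the median was 1.43 and 5 genes reached 4-fold. Fdps, which makes farnesyl diphosphate, had 563 units in 2i/LIF, 528 to 732 in the cESC libraries, and 168 and 122 in serum/LIF. Insig1, which holds the SREBP activation complex in the endoplasmic reticulum and is itself an SREBP target, had 1955, 2168 to 2346, and 642 and 255 in the same order. In both cases every KH2-ISY1 2i/LIF library was above both serum/LIF libraries. Hmgcs1, an early enzyme of the pathway, was 1.91-fold higher in 2i/LIF (interval 1.84 to 1.99). Among 12 fatty acid genes, 1 was 4-fold higher in 2i/LIF: the desaturase gene Scd1, with 6613 units in 2i/LIF, 3784 to 6576 in the cESC libraries, and 1432 and 671 in serum/LIF. The desaturases Fads2 (766 and 192 units) and Fads1 (1483 and 468) were close behind, while Acaca, the first committed enzyme, was 2.20-fold higher in serum/LIF.

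Genes of serine synthesis and the ATF4 amino acid response had a median log2 difference of 0.67 over 20 measured members, of which 18 were higher in 2i/LIF and 2 by at least 4-fold. The median log2 level of the list was 9.82 at 0 h, 8.82 to 9.73 in the cESC libraries, and 9.41 and 9.42 in serum/LIF, with overlap. Asns, asparagine synthetase, had 3798 units in 2i/LIF, 2308, 3857, 4269 and 3672 in the cESC libraries, and 922 and 788 in serum/LIF. Nupr1, a stress-induced chromatin protein, had 397 units, 169 to 298, and 33.5 and 34.4 in the same order. Both genes were higher in all 5 KH2-ISY1 libraries in 2i/LIF than in either serum/LIF library, by 4.12-fold (interval 3.95 to 4.30) and 11.9-fold (interval 9.84 to 14.4) in the main pair. The stress genes Trib3 (724 and 181 units) and Chac1 (276 and 69.7) were just under 4-fold on the log scale, and in serum/LIF with Dox they stood at 439 and 199.6. Phgdh, the first enzyme of serine synthesis, differed by 0.20, and Ddit4, an mTOR inhibitor also induced by hypoxia, by -1.46. Metal-handling genes were split. The metallothionein gene Mt2 had 8106 units in 2i/LIF, 3841, 7202, 13084 and 10428 in the cESC libraries, and 975 and 1183 in serum/LIF, an 8.31-fold difference (interval 8.02 to 8.62). Mt1, its neighbour and paralogue, had 2874 and 764 units, whereas the transferrin receptor gene Tfrc had 1017 in 2i/LIF and 6178 and 2015 in serum/LIF.

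The promoters of 3 of these genes are shown because each holds letters of the response element named for its group. They run from 250 bases before to 50 bases after a RefSeq transcription start of build GRCm38.p6, 5' to 3' on the gene's strand, with matches on either strand in capitals. Asns lies at chr6:7693160-7693459 and Nupr1 at chr7:126625421-126625720, both on the minus strand, and Mt2 at chr8:94172368-94172667 on the plus strand. The capitals mark TGATGNAA, the letters of the C/EBP-ATF element, in Asns and Nupr1, and TGCACNC or TGCGCNC, the letters of the metal response element, in Mt2.
Asns: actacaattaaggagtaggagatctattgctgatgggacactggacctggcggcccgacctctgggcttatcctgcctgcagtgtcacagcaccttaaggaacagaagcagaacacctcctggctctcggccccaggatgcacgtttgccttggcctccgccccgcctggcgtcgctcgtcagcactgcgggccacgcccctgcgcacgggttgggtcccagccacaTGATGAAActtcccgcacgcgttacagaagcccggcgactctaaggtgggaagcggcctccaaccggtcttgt
Nupr1: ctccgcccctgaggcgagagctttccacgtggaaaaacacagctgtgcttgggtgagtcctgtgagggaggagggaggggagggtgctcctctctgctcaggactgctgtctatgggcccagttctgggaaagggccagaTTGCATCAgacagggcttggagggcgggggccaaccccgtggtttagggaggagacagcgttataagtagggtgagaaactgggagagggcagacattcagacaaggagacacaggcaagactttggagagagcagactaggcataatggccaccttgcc
Mt2: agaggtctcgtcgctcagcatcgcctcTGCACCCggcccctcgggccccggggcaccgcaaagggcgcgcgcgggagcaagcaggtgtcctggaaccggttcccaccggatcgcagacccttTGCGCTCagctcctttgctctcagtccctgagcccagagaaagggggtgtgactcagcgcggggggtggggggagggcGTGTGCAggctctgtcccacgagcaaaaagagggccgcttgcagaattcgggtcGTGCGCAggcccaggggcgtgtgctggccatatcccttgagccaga
The match begins 23 bases before the start in Asns and 110 before it in Nupr1, and Mt2 has 4 matches. TGATGNAA stood in 3.97% of all 32851 windows of this length in the RefSeq table, and in 5 of the 19 windows of the 17 list members that have one: Asns, Chac1, Nupr1, Slc7a11 and Trib3. The metal element stood in 25.7% of all windows and in 4 of the 10 windows of 7 members. Letter matches were searched for 7 kinds of element, and the genes printed here were chosen among those with a match after their values were seen. A match describes letters and shows no binding.

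Hypoxia response genes were higher in the serum/LIF library without Dox, and mostly not in the one with Dox. Of 12 measured members, 6 were 4-fold higher in serum/LIF without Dox and none in 2i/LIF, with a median log2 difference of -1.90. Against serum/LIF with Dox, 2 of 10 were, with a median of -0.22, and 1 was 4-fold higher in 2i/LIF. Egln3, an oxygen-sensing prolyl hydroxylase, had 53.1 units in 2i/LIF, 1614 in serum/LIF and 286 in serum/LIF with Dox. Bnip3, a mitophagy receptor, had 209 units in 2i/LIF, 1671 in serum/LIF and 292 with Dox, and in the cESC libraries 1165 and 99.02 without Dox (from 24 h and 48 h EpiLCs) and 148 and 779 with Dox. The serum/LIF library without Dox was thus the highest of the 7 KH2-ISY1 libraries for both genes, but for Bnip3 a pair of the cESC libraries exceeded serum/LIF with Dox. Ankrd37, an ankyrin repeat gene, stood at 15.98, 151 and 18.2 units in 2i/LIF, serum/LIF and serum/LIF with Dox, and Adm, the adrenomedullin gene, at 3.56, 66.3 and 0.472. Pdk1, the pyruvate dehydrogenase kinase, was high in both serum/LIF libraries (1559 and 1239 units, against 175 in 2i/LIF and 128 to 289 in the cESC libraries). It was 4-fold higher in serum/LIF in all 10 pairs with the divisors of the main pair, but not with each pair scaled anew.

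Glycolysis genes differed in the same way. Of 18 measured, 3 (Slc2a1, Pfkl and Pdk1, which stands in both lists) were 4-fold higher in serum/LIF and the median log2 difference was -0.83, which became 0.00 against serum/LIF with Dox, where 1 passed. The median log2 level of the list was 11.19 at 0 h and 12.16 and 11.16 in serum/LIF without and with Dox. In the cESC libraries it was 11.97 and 11.26 without Dox (from 24 h and 48 h EpiLCs) and 11.19 and 11.74 with Dox, so the media overlapped. The glucose transporter gene Slc2a1 had 919 units in 2i/LIF, 9145 in serum/LIF and 2638 with Dox, with 622 to 1908 in the cESC libraries. Pfkl, a phosphofructokinase, stood at 1271, 5485 and 2171 units in 2i/LIF, serum/LIF and serum/LIF with Dox, and Pgk1 at 2186, 7153 and 2395. For Pfkl and Pgk1 the serum/LIF library with Dox thus lay nearer to 2i/LIF at 0 h than to the other serum/LIF library, whereas for Slc2a1 and Pdk1 both serum/LIF libraries were above all 5 KH2-ISY1 libraries in 2i/LIF. The 2 serum/LIF libraries differ by label in Dox, whose part in this was not tested.

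Promoters of Bnip3 (chr7:138909457-138909756, minus strand) and Ankrd37 (chr8:45999801-46000100, minus strand) are shown, in the same window and build, because the gap between the 2 serum/LIF libraries was wide for both. Both were chosen after their values were seen. The capitals mark ACGTG or GCGTG on either strand, the letters of the hypoxia response element.
Bnip3: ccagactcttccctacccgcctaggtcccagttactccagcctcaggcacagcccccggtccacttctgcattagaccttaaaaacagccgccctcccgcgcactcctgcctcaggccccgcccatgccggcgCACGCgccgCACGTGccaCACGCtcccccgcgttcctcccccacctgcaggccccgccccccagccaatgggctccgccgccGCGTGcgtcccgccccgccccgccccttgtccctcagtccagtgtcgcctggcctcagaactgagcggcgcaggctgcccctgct
Ankrd37: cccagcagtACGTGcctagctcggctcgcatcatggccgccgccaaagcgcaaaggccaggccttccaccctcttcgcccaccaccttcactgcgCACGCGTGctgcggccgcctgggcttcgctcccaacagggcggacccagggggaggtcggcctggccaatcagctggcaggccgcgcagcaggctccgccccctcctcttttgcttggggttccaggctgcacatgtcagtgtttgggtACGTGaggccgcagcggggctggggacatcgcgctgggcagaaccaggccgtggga
Bnip3 has 5 matches and Ankrd37 has 4, some of which overlap. A match stood in 10 of the 12 windows of 10 list members, 1 for each member, and in 43.8% of all windows, so the letters are common. The counts for the other elements searched were as follows: TCACNCCAC (sterol response element, 1.24% of all windows) in 1 of 19 windows of 16 sterol genes, that of Hmgcs1; CTTTGAA or CTTTGAT (TCF, 8.65%) in 4 of 16 windows of 10 beta-catenin targets; and GCGGGAAA (E2F6, 1.07%) in 2 of 23 windows of 19 germline genes. CCAAT (37.4%) could not be counted for histone genes, because none of the 9 matched a window by symbol.

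Other functional groups differed in part. Replication histone genes, whose transcripts mostly lack a polyA tail and whose copies are nearly identical, were 4-fold higher in serum/LIF in 6 of 8 cases, with a median of -2.49, but only 1 of 5 passed against serum/LIF with Dox. Hist1h1c had 11.5 units in 2i/LIF and 129.98 and 43.7 in serum/LIF, and Hist1h2bc had 14.1, 70.3 and 44.9. Of 17 extracellular matrix and integrin genes, 2 were 4-fold higher in serum/LIF, both subunits of basement membrane collagen IV. Col4a1 had 49.6 units in 2i/LIF, 74.0 to 137 in the cESC libraries, and 1693 and 874 in serum/LIF, and Col4a2 had 54.9, 48.1 to 90.8, and 764 and 398. Both passed in all 10 pairs, whereas the basement membrane genes Nid1 (6133 and 1935 units) and Sparc (2113 and 954) were higher in 2i/LIF by under 4-fold. Of 17 cell cycle regulators, 3 were 4-fold higher in serum/LIF: Ccnd2, cyclin D2, with 2.65 units in 2i/LIF and 137 and 25.3 in serum/LIF; Rb1, the retinoblastoma gene, with 66.4, 272 and 205; and Cdkn1c. Cdkn1a, the p21 gene, was 2.603-fold higher in 2i/LIF, and Ccne1, cyclin E1, 3.77-fold higher in serum/LIF.

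Of 11 p53 targets only Pmaip1, the NOXA gene, passed (295 units in 2i/LIF, 1441 and 1088 in serum/LIF). Of 4 measured retinoic acid response genes, 2 were 4-fold higher in serum/LIF. Crabp2, a retinoic acid carrier, was among them, with 3.56, 32.6 and 10.1 units in 2i/LIF, serum/LIF and serum/LIF with Dox. Crabp2 reached 34.8 in the cESC library from 24 h EpiLCs without Dox, as high as in serum/LIF. Rarg, a retinoic acid receptor gene chosen after its values were seen, had 30.1 units in 2i/LIF and 723 and 652 in serum/LIF. Of 6 measured Hox genes 2 were 4-fold higher in 2i/LIF, both at low levels: Hoxd9, with 30.1 and 1.34 units, and Hoxc13, with 69.9 and 16.1. In the cESC libraries Hoxd9 stood at 2.75 to 9.77. Of 12 antioxidant and selenoprotein genes, Nqo1, a quinone reductase, was 4-fold higher in 2i/LIF (1103 and 271 units). None of 9 interferon and MHC genes passed, though 8 were higher in 2i/LIF (median 0.66). Against serum/LIF with Dox, 3 of 9 were 4-fold higher in 2i/LIF, beside 2.94% of all genes. From the 12 contractile and SRF targets only Cnn1 passed in the main pair (2.65 and 31.0 units, 4.22 with Dox).

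In 2i/LIF and in serum/LIF without Dox, each sum of markers of other cell types was below the level of Pou5f1. Not every ESC gene was above these sums: in 2i/LIF the endoderm, trophoblast and neuroectoderm sums were above the level of Utf1. Feeder fibroblast markers summed to 175 units in 2i/LIF, 560 in serum/LIF, 193 in serum/LIF with Dox and 46.8 to 92.6 in the cESC libraries. Col5a1 (42.4 and 213 units) and Fbn1 (10.6 and 70.1) were the 2 of 6 measured that passed 4-fold. Of the 6, 5 were at least 2-fold higher in serum/LIF, and the median log2 difference was -1.67, or -0.64 against serum/LIF with Dox. Of the listed feeder markers found in the serum/LIF table alone, Col3a1 and Lum were at 0.23 deposited units without Dox, Prrx1 at 0.68 and Dcn at 0, and all 4 were at 0 with Dox. Endoderm markers found there alone are not in the sums below. Amn was at 30.68 and 13.57 deposited units without and with Dox, Apoa1 at 4.32 and 2.38, and Sox17 at 2.95 and 3.1. Foxa2 was at 0.45 and 1.43, Ttr at 0 and 0.24, and Afp at 0 in both. Primitive and visceral endoderm markers summed to 903, 946 and 1526 units in 2i/LIF, serum/LIF and serum/LIF with Dox, trophoblast markers to 1071, 833 and 724, neuroectoderm markers to 447, 555 and 467, and primitive streak markers to 174, 159 and 91.2. The same sums in the cESC libraries ran from 777 to 1214, 539 to 2459, 326 to 747 and 26.2 to 86.7 units. The endoderm list had 4 of 6 measured markers higher in serum/LIF and 2 in 2i/LIF, and only Cubn passed 4-fold. Cubn, the endocytic receptor cubilin, had 1 read in 2i/LIF and 44.7 and 105 units in serum/LIF. The neuroectoderm list had 3 of 5 measured markers higher in serum/LIF and 2 in 2i/LIF, and only Neurod1 passed. Neurod1, a neurogenic factor, had 1 read in 2i/LIF and 49.6 and 137 units in serum/LIF. The primitive streak list had 5 measured markers, with 1 at least 4-fold higher in each medium. Gsc, a homeobox gene of the organizer, had 53.9 units in 2i/LIF and 5.90 to 25.0 in the cESC libraries. It had no read in serum/LIF and 0.698 units with Dox, which makes it at least 80.5-fold higher in 2i/LIF. The trophoblast list had 9 measured markers. Krt7 (67.3 and 14.7 units) was 4-fold higher in 2i/LIF, and Ascl2 (5.29 and 37.1) and Hand1 (2.65 and 20.3) in serum/LIF. Against serum/LIF with Dox, none of the 6 trophoblast markers with a mean of at least 10 passed in either direction. The part of other cell types in the differences above was not tested. None of 12 reference genes passed 4-fold (median 0.20, from -0.71 for Hprt to 0.75 for Eef1a1), which for so few genes is near the 6.06% of all genes that passed in either direction. Ribosomal protein genes had a median of 0.58 over 261 names and mitochondrially encoded genes 0.40 over 13, so these abundant groups stood slightly higher in 2i/LIF. The mitochondrial median was -0.74 against serum/LIF with Dox.

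The genes with the largest differences, among those with a mean of at least 50 units, came from many families. Besides Spry4, Peg10, Id1, Ccnd2 and Egr1, the 10 highest in serum/LIF were AU015836 (9.77 and 641 units in 2i/LIF and serum/LIF), Enox1, a cell surface oxidase (3.56 and 236), the keratin gene Krt19 (18.6 and 746), Nxph4, a neurexophilin (5.29 and 229.8), and Ttc21b, a ciliary transport gene (1.73 and 98.9). Krt19 and Nxph4 were much lower in serum/LIF with Dox, at 126 and 22.9 units, while Enox1 (327) and Ttc21b (79.5) were not. Enox1 stood at 378 units in the DGCR8 knockout library in 2i/LIF, above both serum/LIF values. Ttc21b had only 2 reads in 2i/LIF at 0 h. In the cESC libraries Krt19 reached 76.1 units and Ttc21b 47.5, which left log2 differences of -0.72 and -0.73 in the closest of the 10 pairs. For AU015836, Enox1 and Nxph4 the closest pair differed by -2.60, -3.42 and -1.61. The 10 highest in 2i/LIF were led by Arl14epl, with 793 units in 2i/LIF, 132 to 564 in the cESC libraries, and 11.4 and 24.6 in serum/LIF, a 69.6-fold difference (interval 52.5 to 94.2). The others, beside 4 genes described below, were Pkd2l1, a polycystin-like channel (102 and 0.894 units), Slc16a9, of the monocarboxylate transporter family (219 and 3.12), the glycoprotein gene Gpnmb (468 and 9.16), Mal, a membrane raft protein (395 and 10.1), and the T-box gene Tbx15 (189 and 4.91). Gpnmb and Tbx15 overlapped serum/LIF in the cESC libraries, which ran from 8.45 to 104 and from 6.82 to 57.1 units.

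The genes with the widest gap over all 10 pairs of media were partly the same. In serum/LIF they were Spry4, Id1, Bmp4, Pla2g7, a phospholipase that inactivates platelet-activating factor (7.94 units at 0 h, 1.83 to 5.39 in the cESC libraries, 190.5 and 238 in serum/LIF), and the zinc and manganese transporter gene Slc39a14 (15.98, 6.41 to 16.99, 437 and 356). Over the pairs, the log2 difference of Spry4 ran from -11.21 to -8.16 and that of Id1 from -7.64 to -5.58. In 2i/LIF they were Pnma5, a paraneoplastic antigen family gene (198 units at 0 h, 187 to 278 in the cESC libraries, 4.69 and 7.96 in serum/LIF), Pla1a, a phosphatidylserine phospholipase (273, 124 to 179, 5.36 and 6.78), the zinc finger gene Zfp264 (106, 66.1 to 110.1, 2.68 and 3.51), Fkbp6, an immunophilin of the germline (143, 65.1 to 121, 4.69 and 3.27), and the Y-linked Eif2s3y. Pnma5 and Eif2s3y also separated the tables over all KH2-ISY1 libraries: Pnma5 had 68.0 to 502 units in the 13 EpiLC libraries and 12.2 to 36.8 in the 6 EB libraries, and Eif2s3y 110.0 to 217 and 13.4 to 38.7, so for both the table and the medium cannot be told apart. For each of these 10 genes the lowest KH2-ISY1 ESC library of one medium was above the highest of the other, which follows from how they were chosen. At the 4-fold threshold, Cdc42ep2 (23.9 and 98.7 units) fell just inside and Notch3 (257 and 1032) just outside on the serum/LIF side, and Smtnl1 (62.0 and 14.7) just inside and Myo1a (78.8 and 18.99) just outside on the 2i/LIF side.

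Both media are also the starting point of a course. In the first library after 2i/LIF was replaced by EpiLC medium, at 6 h, Spry4 stood at 1325 units, up from 2.65 at 0 h and within 2-fold of the 2359.96 of serum/LIF. Dusp6 stood at 786 units at 6 h, against 883 in serum/LIF. Both ERK feedback genes were thus within 2-fold of their serum/LIF level at 6 h. Spry4 was highest at 6 h among the EpiLC libraries and so did not pass that level. Lin28a passed its serum/LIF level of 1722 units between 18 h, with 1643, and 24 h, with 2414. Coming within 2-fold and passing a level are different measures, so these times do not rank the genes by speed. Id1 peaked at 264 units at 12 h, below the 681 of serum/LIF, and was down to 4.48 by 48 h. Dnmt3l passed its serum/LIF level of 478 units at 12 h, with 937, and Prdm14 went below its serum/LIF level of 121 between 18 h, with 140, and 24 h, with 44.4. In the EB course, Spry4 was at 2009 units on day 1 and 101 on day 4, and Otx2 went from 23.4 on day 0 to 131 on day 2. With 1 library a time, these are single values.

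**Figure D4:**
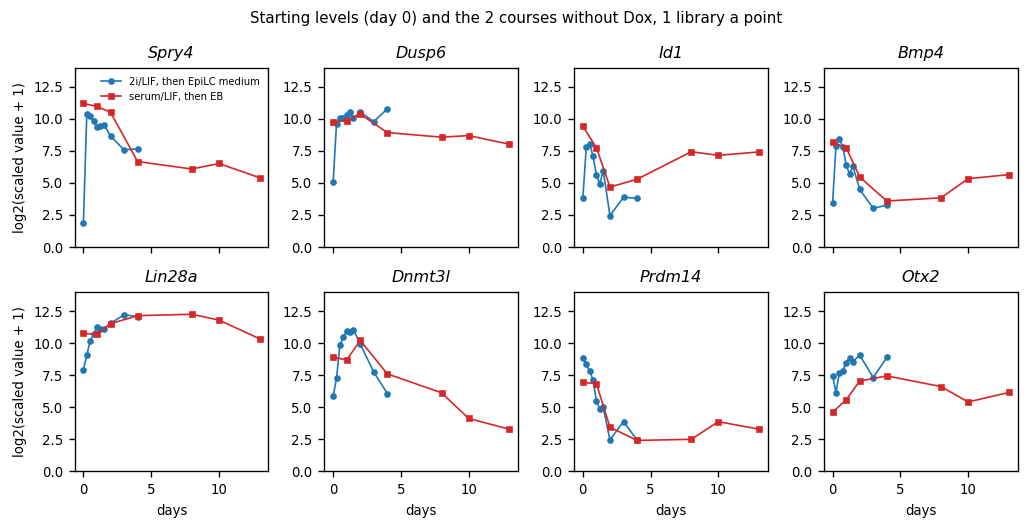
Each panel is 1 gene, with days in the medium that follows on the horizontal axis and log2(scaled value + 1) on the vertical, for the course from 2i/LIF into EpiLC medium (blue circles) and from serum/LIF into EBs (red squares), both without Dox and with 1 library a point. The first points are the comparison of the media: Spry4, Dusp6, Id1 and Bmp4 start low in blue and high in red, and their blue lines are up at the second point, taken at 6 h.

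The share of genes at least 4-fold apart was larger between media than within either. Over the 10 pairs between media it ran from 4.73% to 7.10% (median 6.06%). Over the 10 pairs within 2i/LIF it ran from 0.0685% to 4.39% (median 1.08%), and between the 2 serum/LIF libraries it was 0.749%. The pairs between media are also the pairs between tables, and the 2 cannot be told apart. Over every library of both tables, including EpiLCs, EBs and the knockout line, 12 genes (0.0852%) were higher in all libraries of the 2i/LIF table and 23 (0.163%) in all libraries of the serum/LIF table. Of these, 3 (0.0213%) and 6 (0.0426%) were among the 4-fold genes: Gstm2, Jakmip1 and Mdfic, higher in 2i/LIF, and Agap2, Csrnp3, Helz2, Nxph4, Pls1 and Serpine2, higher in serum/LIF, named because of their small number after their values were seen. For these 9 genes the table and the medium cannot be told apart even with the courses in view. Over the libraries of KH2-ISY1 alone, 18 and 8 in the 2 tables, 12 of the 305 genes (0.0852% of those compared) and 10 of the 548 (0.0710%) separated the tables in this way.

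**Figure D5:**
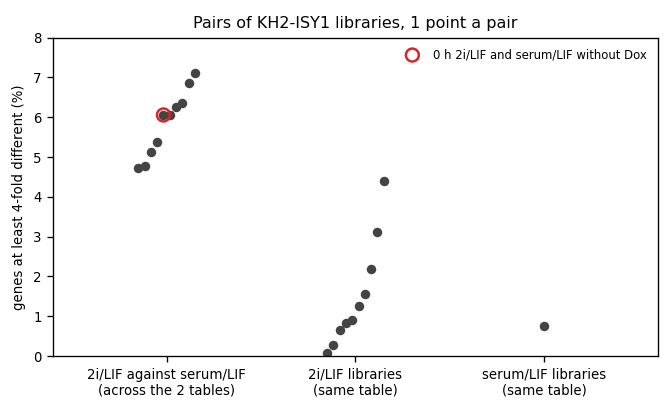
Each point is 1 pair of KH2-ISY1 libraries, at the percentage of genes whose log2(scaled value + 1) differed by at least 2; the ring marks the pair of the main comparison. The 10 pairs between media (4.73% to 7.10%) all lie above the 10 pairs within 2i/LIF (0.0685% to 4.39%) and the single pair within serum/LIF (0.749%).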

How the data were processed

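PolyA RNA was sequenced, per the labels' protocols from 3 ug of Trizol-extracted total RNA with a stranded TruSeq kit. The submitters' processing notes name Bowtie and the builds GRCm38 and mm9; the counter, its annotation and strand setting, and the normalisation are not given in the sources used here. The deposited values are of the unit signal: in both main libraries they were whole reads divided by 1 factor per library by the authors (99.9% and 100% of values came within 0.1 of whole reads). Names found once in both tables were kept. Both columns were scaled by the median ratio (divisors 0.983 for 2i/LIF and 1.018 for serum/LIF), and the printed units of other libraries took the divisor of their own table, as did the 10 pairs. Where another library took the place of one of the 2, that pair was scaled anew. Spreadsheet-like dates stand for 16 shared names, which were kept and not named.

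Genes with a mean of at least 10 were called at 4-fold on log2(value + 1). No count model was fitted, because each condition has 1 library. Intervals are 95% Clopper-Pearson intervals of the 2 read counts, and the floor of an absent gene was 3 reads per library. The calling was tested on simulated data, with 8-fold changes placed in genes with a mean of at least 50 and no effect of the table. That test does not speak for 4-fold calls near the filter or for differences between the tables. Tools were Python 3.11.15, pandas 2.3.3 and scipy 1.17.1.

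Members and the 36 gene lists were chosen with earlier results of these data known. Named were list members at least 4-fold different, up to 6 a direction and list, and others that show a split or level list. Also named were the 10 genes a direction with the largest difference at a mean of at least 50, the 5 a direction with the widest gap over all 10 pairs, and those beside the threshold. Predicted genes and date-like names were left out of the last groups. A few genes that the rule names are counted in their lists and not reported here. Alternatives changed the scaling, the added constant, the filter, the threshold and the library of either medium.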

Additional observations from a re-analysis of the deposited data

How the results depend on the processing

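The 305 genes 4-fold higher in 2i/LIF became 185 at a mean of at least 50, 96 at 8-fold, 168 with the cESC library from 48 h EpiLCs without Dox in place of the 0 h library, and, in alternatives added after seeing the data, 184 and 198 with the cESC libraries from 24 h and 48 h EpiLCs with Dox. With that from 24 h EpiLCs without Dox there were 216 and 733 genes, of which 94 and 309 were among the 305 and 548. With the other 3 cESC libraries 115 to 150 and 339 to 454 were, and with the serum/LIF library with Dox 233 and 268. The 548 genes 4-fold higher in serum/LIF became 220 at a mean of at least 50, 222 at 8-fold and 336 with the serum/LIF library with Dox. The direction with more genes turned only with that last library. The other scalings (values as deposited, equal sums, a trimmed mean) gave 270 to 308 and 542 to 594 genes, and constants of 0.5 and 5 gave 311 and 232, and 572 and 386.

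Of the named 4-fold genes, some changed sign with another library. Each swapped library was scaled anew by its own median ratio, which moved the log2 differences by -0.04 to 0.28 from those of the printed units, most for the cESC library from 24 h EpiLCs without Dox. With serum/LIF with Dox, the log2 difference was 1.61 for Adm and 1.05 for Cdc42ep2. With the cESC library from 24 h EpiLCs without Dox it was 0.36 for Crabp2, -0.0397 for Dazl, -0.30 for Plagl1, -0.79 for Rpl10l and -0.37 for Smad9. With that from 48 h EpiLCs it was -1.14 for Smad9 without Dox, and with Dox -0.72 for Smad9, 2.42 for Igf2, 0.85 for Msx2 and 0.46 for Peg10. The cause was not tested. No paired analysis was possible because each medium has 1 library, and none could be left out. Depth limits the 2i/LIF side: a difference resting on a few reads there, as for Sfrp2, Cdh2, Nkd1, Cubn or Neurod1, has a wide interval.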

Other observations

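Several genes outside the lists were singled out after their values were seen. The glutathione transferase genes Gstp1 and Gstp2, near-identical copies whose counts are uncertain, had 393 and 416 units in 2i/LIF, 28.6 and 17.4 in serum/LIF, and 40.9 and 31.3 in serum/LIF with Dox. Mitf, a basic helix-loop-helix factor of pigment cells and lysosomes, had 523 units in 2i/LIF at 0 h, 45.0 to 178 in the cESC libraries, and 37.5 and 40.2 in serum/LIF. Rpl39l, a retrocopy of a ribosomal protein gene, had 187 units at 0 h, 9.36 to 48.2 in the cESC libraries, and 8.04 and 10.1 in serum/LIF. Higher in serum/LIF were Inhbb, an activin subunit gene (38.1 units in 2i/LIF, 559 and 819 in serum/LIF), S100a6, a calcium-binding protein gene (76.1, 721 and 684), and Ndufa4l2, a mitochondrial protein induced by hypoxia (40.7, 647 and 70.7). Inhbb stood at 378 units in the DGCR8 knockout library in 2i/LIF, far above the KH2-ISY1 libraries in that medium, and Ndufa4l2 was low in serum/LIF with Dox, like most hypoxia response genes. In the cESC libraries Ndufa4l2 ran from 20.6 to 131 units, so it overlapped serum/LIF with Dox.

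The Y-linked genes Ddx3y, Eif2s3y and Uty were lower in both serum/LIF libraries than in every KH2-ISY1 library in 2i/LIF, and Kdm5d was not. Ddx3y, an RNA helicase, had 239.9 units in 2i/LIF, 173 to 297 in the cESC libraries, 39.8 in the DGCR8 knockout library, and 19.2 and 30.6 in serum/LIF without and with Dox. Eif2s3y, a translation initiation factor subunit, had 117, 189.7 to 289.7, 16.6, and 4.47 and 5.61 in the same order. Both were low in serum/LIF and in the knockout line. In KH2-ISY1 the level went with the table and not only with the medium: Ddx3y had 163 to 303 units in the 13 EpiLC libraries and 27.5 to 61.1 in the 6 EB libraries, and Eif2s3y 110.0 to 217 and 13.4 to 38.7, so the table and the medium cannot be told apart. Both genes also have a related X-linked copy, Ddx3x (3677 and 3163 units in 2i/LIF and serum/LIF) and Eif2s3x (3794 and 3130.2). How reads were assigned between the copies is not given, so these counts carry some uncertainty. Uty had 34.5 units in 2i/LIF, 29.4 to 47.5 in the cESC libraries, and 10.9 and 10.3 in serum/LIF, under 4-fold in the main pair. It had 11.1 in the knockout library, 26.2 to 53.6 in the EpiLC libraries without Dox and 7.86 to 21.8 in the EB libraries. Kdm5d, a histone demethylase gene, had 79.7 units in 2i/LIF, 110 to 130 in the cESC libraries, and 115 and 125 in serum/LIF. In the knockout library Kdm5d had 129. Against serum/LIF without Dox, the DGCR8 knockout library in 2i/LIF had 9.55% of genes at least 4-fold apart, and against the KH2-ISY1 library in 2i/LIF 4.21%.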
